A study of Homo sapiens with 3 samples.

Results

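Tubulins are the building blocks of microtubules. The 10 genes described here are 4 alpha tubulin genes (TUBA1A, TUBA1B, TUBA1C and TUBA4A) and 6 beta tubulin genes (TUBB, TUBB2A, TUBB2B, TUBB3, TUBB4B and TUBB6). They were taken by symbol from a fixed list of names, and all 10 were found among the 26565 genes of the deposited tables. The cells were MTAC-P, a line derived from the human lung cancer line PC9 and resistant to tyrosine kinase inhibitors of EGFR. One library came from cells with a control hairpin against luciferase (1 library, called control) and the others from cells with a hairpin labelled shBCAT1 (2 libraries, called shBCAT1 1 and shBCAT1 2). The medium was DMEM with 10% serum for each library, and RNA was sequenced. Whether the shBCAT1 libraries share a hairpin, a culture or a clone is not in the labels, so p-values measure only how these libraries differ, and that spread may be technical. The design text speaks of triplicate, while 3 libraries in all were analysed here.

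One alpha and one beta tubulin form the heterodimer that adds to microtubule ends, and microtubules carry organelle transport and form the mitotic spindle. The isotypes of each class differ mainly in their acidic C-terminal tails, which modifying enzymes and motors read. Folding passes from prefoldin to the CCT chaperonin and then to the cofactors TBCA to TBCE, which assemble the heterodimer. Cells also adjust tubulin mRNA to the amount of free heterodimer. TTC5 binds the first residues of alpha or beta tubulin as they leave the ribosome and directs the decay of that mRNA.

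The coding sequences show how much the genes share, which bears on how reads could be assigned among them. The last 60 bases of each coding sequence encode the C-terminal tail. They are printed for the closest pair of beta genes, TUBB2A and TUBB2B, and for the most abundant beta genes, TUBB and TUBB4B. They come from GENCODE release 29 transcripts matched to the RefSeq accessions of the tables, run from 5′ to 3′, and have the stop codon in capitals.
TUBB2A: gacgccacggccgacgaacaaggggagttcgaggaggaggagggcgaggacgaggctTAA
TUBB2B: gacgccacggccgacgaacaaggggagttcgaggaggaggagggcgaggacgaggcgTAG
TUBB: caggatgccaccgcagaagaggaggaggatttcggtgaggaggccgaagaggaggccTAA
TUBB4B: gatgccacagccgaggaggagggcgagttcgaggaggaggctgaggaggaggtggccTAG

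Over the whole coding sequence TUBA1A and TUBA1B differ at 38 of 1356 aligned positions (97.2% identity). TUBA1B and TUBA1C differ at 43 (96.8%) and TUBA1A and TUBA1C at 56 (95.9%), whereas TUBA4A is 84.4% to 85.7% identical to these 3 genes. TUBB2A and TUBB2B are the closest beta pair, with 25 differences over 1338 positions (98.1%), and the other beta pairs range from 80.9% to 87.7%. The printed ends of TUBB2A and TUBB2B differ only in the last codon before the stop and in the stop codon, and encode the same residues. Alpha and beta coding sequences are 51.9% to 54.0% identical.

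The first 12 bases, which hold the start codon and the codons of the residues that TTC5 reads, are atgCGTGAGTGC in TUBA1A, TUBA1B and TUBA1C and atgCGTGAATGC in TUBA4A. They are atgAGGGAAATC in TUBB and TUBB4B, atgAGGGAGATC in TUBB3 and TUBB6, atgCGCGAGATC in TUBB2A and atgCGTGAGATC in TUBB2B. The capitals mark the 9 bases after the start codon.

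Windows of 50 bases were used to see how often a stretch of a member's transcript also occurs in the transcript of another gene, on either strand. The read length is not given in the sources used here, so 50 bases is an arbitrary choice. For TUBA1B, 87.1% of windows were shared with another annotated gene, and 56.6% with another of the 10 members. For TUBA1A these shares were 51.8% and 51.7%, and for TUBA1C 40.1% and 25.1%. TUBB2A shared 60.3% of its windows with TUBB2B, and TUBB3 89.4% with an overlapping annotated transcript named AC092143.1. TUBB4B and TUBB6 were the most distinct from all annotated genes, at 14.6% and 0.993%. TUBA4A and TUBB shared 0% of windows with other members. The division of reads among TUBA1A, TUBA1B and TUBA1C, and between TUBB2A and TUBB2B, is therefore uncertain in these tables.

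The tables give FPKM, in which fragments are divided by the length of the transcript and by the library's total. They are per length, so levels of different genes can be set side by side. The entries of each gene were added up. The confidence bounds of the tables were combined over entries and cover no spread between libraries. Read totals are unknown. FPKM summed to 53898 in the control, 44313 in shBCAT1 1 and 46145 in shBCAT1 2. The targeted gene BCAT1 was at 0.213 FPKM in the control (bounds 0.129 to 0.297), 1.05 in shBCAT1 1 (0.835 to 1.27) and 0.241 in shBCAT1 2 (0.158 to 0.325). It was thus not lower in either library labelled shBCAT1, and all directions given here are between libraries as labelled. The epithelial keratin genes KRT7, KRT8, KRT18 and KRT19 were between 87.7 and 410 FPKM in every library. EPCAM was between 3.28 and 3.91 and CDH1, another epithelial marker, between 0.923 and 1.24 FPKM. The lung markers NKX2-1, NAPSA and SFTPB were at most 0.224 FPKM. Of markers of other cell types, PTPRC and COL1A2 were listed at 0 in all libraries and CD68 was at 3.42 to 3.60 FPKM.

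In these cells most tubulin mRNA came from 4 genes. TUBA1B (chromosome 12, 49127784 to 49131521, hg38), the main alpha isotype of many dividing cells, was at 67.4 FPKM in the control, 43.9 in shBCAT1 1 and 61.6 in shBCAT1 2. It was the highest tubulin gene in every library. TUBA1C (chromosome 12, 49227926 to 49273338), a close paralog, was the next at 36.0, 28.1 and 35.1 FPKM. TUBB4B (chromosome 9, 137241259 to 137243707), a widely expressed beta isotype, was at 25.1, 22.2 and 22.7 FPKM. TUBB (chromosome 6, 30720201 to 30725426), the class I beta tubulin, was at 21.2, 18.1 and 21.999 FPKM. The bounds of TUBB4B and TUBB overlapped in each library, so their order is not resolved, whereas TUBA1B, TUBA1C and TUBB4B lay apart from each other in each. In shBCAT1 1 the wide bounds of TUBB (3.60 to 32.6) also overlapped those of TUBA1C, TUBA4A and TUBA1A. The rank of TUBB in shBCAT1 1 is therefore not resolved.

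**Figure D1:**
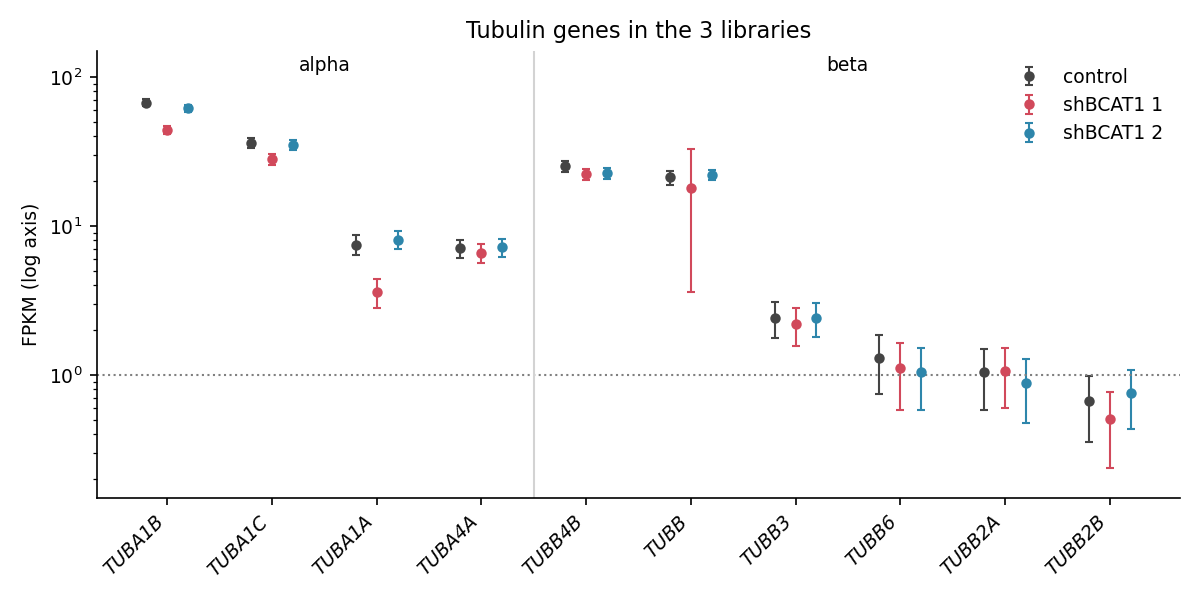
FPKM of the 10 tubulin genes (log axis) in the control, shBCAT1 1 and shBCAT1 2 libraries, with the combined confidence bounds as bars and a dotted line at 1 FPKM. The 3 alpha genes TUBA1B, TUBA1C and TUBA1A sit lower in shBCAT1 1 with bounds apart from the control, and the bounds of TUBB in shBCAT1 1 are wide (3.60 to 32.6).

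A middle group held TUBA1A and TUBA4A. TUBA1A (chromosome 12, 49184795 to 49189324), which is best known from developing neurons, was at 7.48 FPKM in the control, 3.61 in shBCAT1 1 and 8.08 in shBCAT1 2. TUBA4A (chromosome 2, 219249711 to 219254608), whose product, unlike the other alpha tubulins here, lacks an encoded C-terminal tyrosine, was at 7.10, 6.63 and 7.20 FPKM. The bounds of these 2 genes overlapped in the control and in shBCAT1 2 but not in shBCAT1 1, where TUBA1A ranked below TUBA4A.

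The low group held 4 beta genes. TUBB3 (chromosome 16, 89922009 to 89936097), the class III isotype best known from neurons, was at 2.42, 2.18 and 2.41 FPKM in the control, shBCAT1 1 and shBCAT1 2. TUBB6 (chromosome 18, 12307669 to 12329825) was at 1.29, 1.11 and 1.04 FPKM. TUBB2A (chromosome 6, 3153666 to 3157549) was at 1.04, 1.06 and 0.880 FPKM, and TUBB2B (chromosome 6, 3224261 to 3227734) at 0.668, 0.504 and 0.754. In every library the bounds of TUBB6 overlapped those of TUBB2A, and those of TUBB2A overlapped those of TUBB2B. Of 8 further alpha and beta tubulin genes (TUBA3C, TUBA3D, TUBA3E, TUBA8, TUBAL3, TUBB1, TUBB4A and TUBB8), 0 reached the minimum of 1 FPKM, and their summed level was 0.381, 0.105 and 0.151 FPKM.

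The alpha genes together summed to 118 FPKM in the control, 82.2 in shBCAT1 1 and 112 in shBCAT1 2, and the beta genes to 51.7, 45.2 and 49.7. The ratio of alpha to beta mRNA was thus 2.28, 1.82 and 2.25. Both sums and their ratio were lower than the control in both shBCAT1 libraries, with shBCAT1 2 close to the control. TUBA1B made up 57.1%, 53.4% and 55.0% of alpha FPKM, and TUBA1C 30.5%, 34.2% and 31.3%. The share of TUBA1A was 6.34%, 4.40% and 7.22%, so it was lowest in shBCAT1 1 and highest in shBCAT1 2. The share of TUBA4A was 6.02%, 8.06% and 6.43%. Among beta genes, TUBB4B held 48.6%, 49.2% and 45.6% and TUBB 40.9%, 40.1% and 44.2%. The share of TUBB3 was 4.69%, 4.83% and 4.84%.

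**Figure D2:**
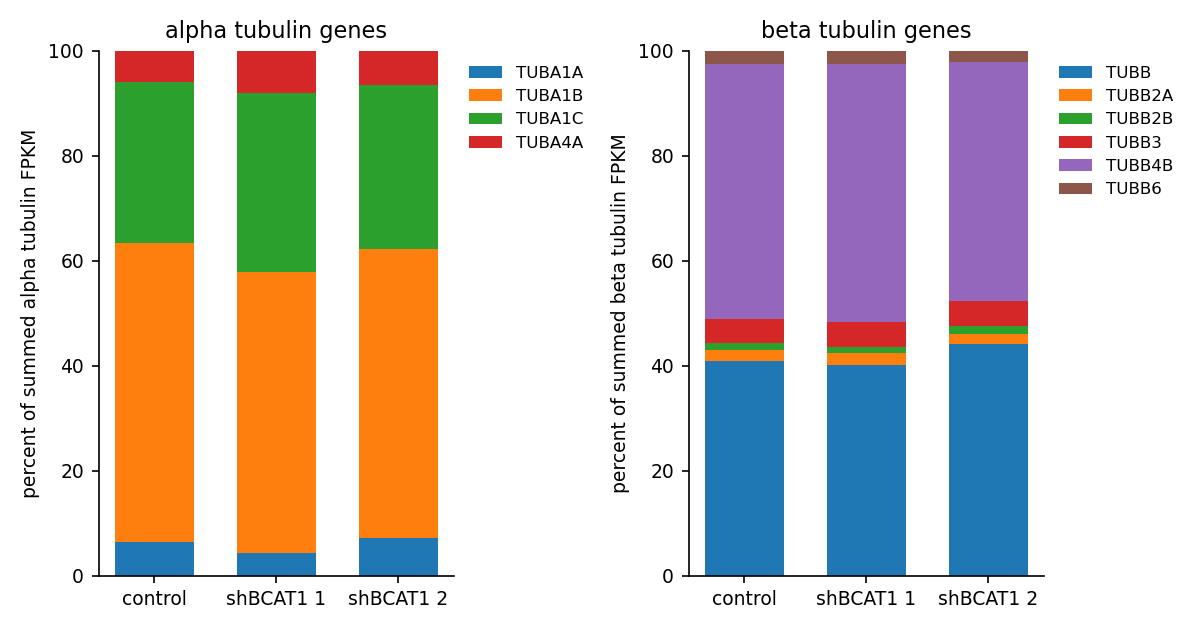
Share of each gene (percent) in the summed FPKM of the 4 alpha genes (left) and the 6 beta genes (right), 1 bar per library. TUBA1B holds 53.4% to 57.1% of alpha, and TUBB4B and TUBB together hold most of beta in each library.

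Setting the shBCAT1 libraries against the control asks whether tubulin mRNA differs when BCAT1 is targeted. No tubulin gene passed the test. Of the 10 genes, 8 had a mean of at least 1 FPKM and were tested, TUBB2A and TUBB2B falling below. By limma with Benjamini-Hochberg adjustment 0 of 8 passed an adjusted p of 0.05, and 0 of 8 had an unadjusted p under 0.05. Over all 3889 genes tested, 0.36% were called lower and 0% higher, and an unadjusted p under 0.05 was reached by 4.96% in the lower and 0.643% in the higher direction. The control is 1 library, so the fit takes its spread from the shBCAT1 libraries (1 residual degree of freedom) and a prior, and assumes that the control varies like them.

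TUBA1B was at 67.4 FPKM against 52.8 ± 12.6 in the shBCAT1 libraries (SD, n = 2), a difference of -0.37 ± 0.27 (SE) in log2(FPKM + 1) with a limma adjusted p of 0.815. TUBA1A was at 7.48 against 5.85 ± 3.16 FPKM, a difference of -0.39 ± 0.46. TUBA1C was at 36.0 against 31.6 ± 4.93 FPKM, with a difference of -0.19 ± 0.22. In each of these 3 genes the spread between the shBCAT1 libraries was a large part of the difference or more than it. TUBB4B was at 25.1 against 22.5 ± 0.294 FPKM, with little spread between the shBCAT1 libraries and a difference of -0.16 ± 0.18. TUBB6 was at 1.29 against 1.08 ± 0.0478 FPKM (-0.14 ± 0.17). The differences of TUBB, TUBB3 and TUBA4A were -0.08 ± 0.22, -0.06 ± 0.19 and -0.03 ± 0.20. Adjusted p by limma ranged from 0.815 to 0.969 over the 8 genes. With quantile normalization the sign turned to positive for TUBA1B, TUBA1C, TUBA4A, TUBB and TUBB4B, and with median-of-ratios scaling for TUBA4A.

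The median difference of the 8 genes was -0.15, beside -0.06 for all genes tested and -0.22 for the 1042 genes whose mean was 5 FPKM or more. Lower values in both shBCAT1 libraries were found for 5 of 8 genes (TUBA1B, TUBA1C, TUBB3, TUBB4B and TUBB6), beside 43.7% of all genes tested, and higher values in both for 0 of 8, beside 25.6%. Taken alone, shBCAT1 1 was lower than the control in 8 of 8 genes, beside 68.7%, and shBCAT1 2 in 5 of 8, beside 49%. Both share the control library. The sum over all 10 genes was 169.7 FPKM in the control and 145 ± 24.3 in the shBCAT1 libraries (SD, n = 2), with 127 in shBCAT1 1 and 162 in shBCAT1 2. An exact permutation test over the libraries, two-sided, gave p = 0.667 for all members, for alpha and for beta (also 0.667 after adjustment over these 3 totals). One library against 2 cannot go below 0.333.

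As deposited, the libraries labelled shBCAT1 had bounds apart from each other in 3 alpha genes, TUBA1A, TUBA1B and TUBA1C. TUBA1B in shBCAT1 1 had bounds of 41.2 to 46.6 FPKM, below the 64.0 to 70.8 of the control and the 58.5 to 64.8 of shBCAT1 2. For TUBA1A the bounds were 2.82 to 4.41 in shBCAT1 1, 6.33 to 8.63 in the control and 6.96 to 9.21 in shBCAT1 2. For TUBA1C they were 25.7 to 30.4, 33.3 to 38.7 and 32.5 to 37.6. In each gene shBCAT1 1 lay alone and low, while the control and shBCAT1 2 overlapped. As a ratio to the control, shBCAT1 1 was at 0.483 for TUBA1A, 0.651 for TUBA1B and 0.780 for TUBA1C, and shBCAT1 2 at 1.08, 0.915 and 0.973.

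Bounds in shBCAT1 1 lay below those of the control in 3 of 8 genes and above them in 0 of 8, beside 7.61% and 1.65% of all genes tested. Of the 6 tubulin genes whose mean over the libraries was 5 FPKM or more, 3 lay below, beside 23.3% of all such genes. These 3 are TUBA1A, TUBA1B and TUBA1C, among which the division of reads is uncertain, so they may not be separate counts. In shBCAT1 2 they lay below in 0 of 8 and above in 0 of 8, beside 7.66% and 7.35%. In 0 of 8 they lay apart on the same side in both libraries, beside 4.17% below and 1.26% above. Bounds in shBCAT1 1 lay below those of shBCAT1 2 in the same 3 genes and above them in 0 of 8, beside 7.71% and 1.83% of all genes tested, and 11.4% lay below among genes whose mean was 5 FPKM or more. With median-of-ratios scaling the bounds of TUBA1C in shBCAT1 1 (27.7 to 32.7) overlapped both those of the control (32.001 to 37.2) and those of shBCAT1 2 (31.002 to 35.9). TUBA1A and TUBA1B then lay apart in both comparisons, 2 of 8 in each. The share of all genes tested with bounds apart under this scaling was not computed, so these counts have no background beside them. Values in shBCAT1 1 were lower in general, with a median difference over all genes tested of -0.12 beside 0.01 for shBCAT1 2. Among the 1042 genes whose mean was 5 FPKM or more, the medians were -0.26 and -0.18, so both libraries were lower there. BCAT1 itself was highest in shBCAT1 1. The part of these in the tubulin values was not tested. In bulk RNA, fewer cells of a kind and less RNA per cell cannot be told apart.

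**Figure D3:**
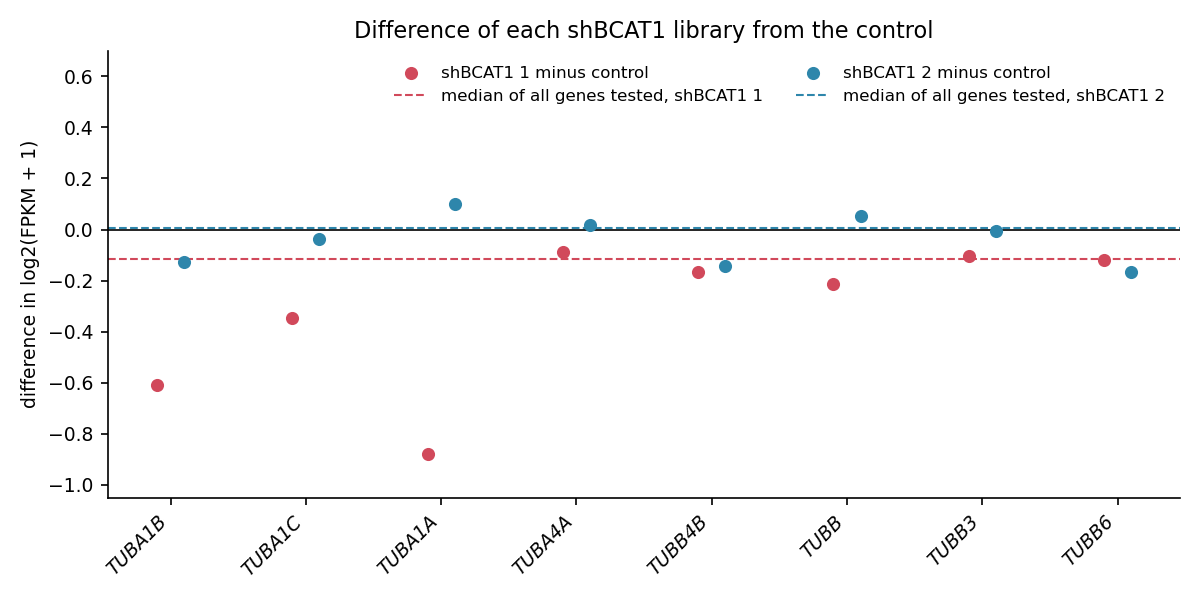
Difference in log2(FPKM + 1) of shBCAT1 1 and of shBCAT1 2 from the control for the 8 tubulin genes tested, with dashed lines at the median of all genes tested in each library (-0.12 and 0.01). TUBA1A (-0.88), TUBA1B (-0.61) and TUBA1C (-0.35) lie farthest from 0 in shBCAT1 1, while the points of shBCAT1 2 lie between -0.17 and 0.10. Among genes whose mean was 5 FPKM or more the medians, not drawn, were -0.26 and -0.18.

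For TUBB the deposited values are split over several transcripts, and in shBCAT1 1 neither the gene (bounds 3.60 to 32.6) nor its main transcript is well resolved. The tables list 7 RefSeq transcripts for it on chromosome 6, and 49 further entries on alternative haplotype sequences that were all at 0. All of these but NR_120608 are coding. NM_178014 was at 7.96 FPKM in the control (bounds 6.61 to 9.30) and 10.3 in shBCAT1 1 (0.359 to 20.2). In shBCAT1 2 it was at 17.9 (16.4 to 19.3). Its part of the gene was 37.6%, 56.8% and 81.3%. NM_001293216, which starts further downstream, was at 3.43 FPKM in the control (2.59 to 4.27) and near 0 in both other libraries (upper bounds 0.0550 and 0.0519). The non-coding NR_120608 was at 2.9998 FPKM in the control, near 0 in shBCAT1 1 (upper bound 0.0691) and at 0.470 in shBCAT1 2. NM_001293214 was at 3.13, 5.11 and 0.936 FPKM, with bounds from 0 to 15.7 in shBCAT1 1. All 7 loci overlap and end at the same base, 30725426, so the division of reads among them is uncertain. The bounds of NM_178014 lay apart between the control and shBCAT1 2, while those in shBCAT1 1 covered both. The fit with transcripts kept apart gave NM_178014 a difference of 0.71 with a limma adjusted p of 0.755, against -0.08 for the gene.

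**Figure D4:**
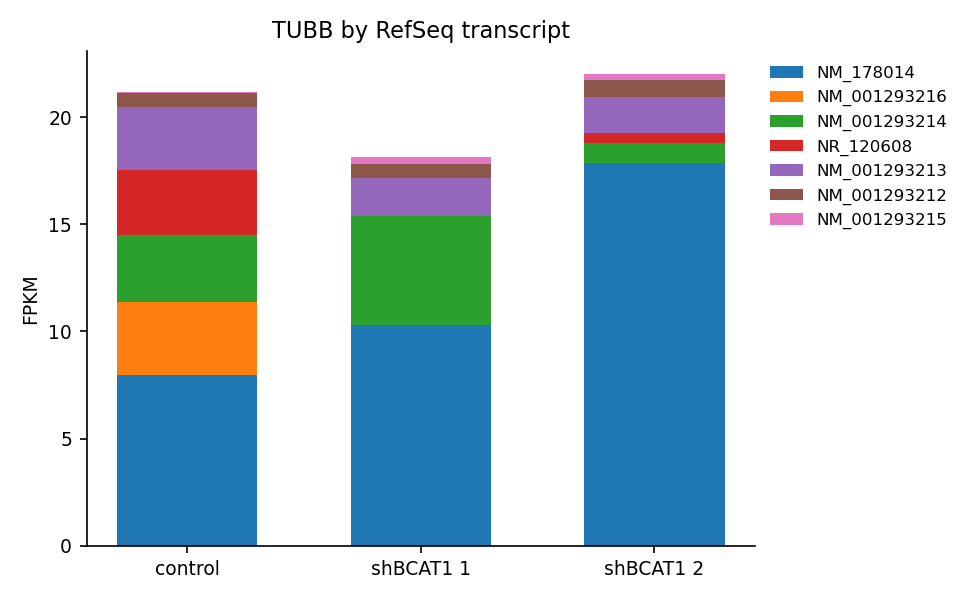
FPKM of TUBB split by RefSeq transcript in each library, stacked. The totals are 21.2, 18.1 and 21.999 FPKM, while NM_178014 holds 37.6% of the gene in the control, 56.8% in shBCAT1 1 and 81.3% in shBCAT1 2.

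The other genes of the tubulin and microtubule system were described from 14 lists with 121 genes, of which 47 were tested. By limma 0 of 47 passed the adjusted p in either direction, with a smallest adjusted p of 0.797, and 1 of 47, DYNLL1, had an unadjusted p under 0.05, beside 4.96% lower and 0.643% higher over all genes tested. Lower values in both libraries were found for 21 and higher values in both for 9 of the 47, beside 43.7% and 25.6% of all genes tested, with a median difference of -0.07 beside -0.06 for all genes tested. The differences below are in log2(FPKM + 1).

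Genes that fold tubulin had lower medians than all genes, and 0 of them passed. The CCT chaperonin has 8 kinds of subunit and folds actin and tubulin. All 8 of its genes were tested, 0 passed, 5 were lower in both libraries, and the median was -0.26. CCT8 was at 4.16 FPKM in the control and 3.03 and 2.88 in shBCAT1 1 and shBCAT1 2, and CCT3 at 11.3, 8.62 and 8.84. TCP1 was at 3.58, 2.64 and 2.63 FPKM. CCT6A, named after its values were seen, was at 26.8, 21.8 and 22.2 FPKM with bounds below the control in both libraries (limma adjusted p = 0.804), beside 4.17% of all genes tested. Of genes whose mean was 5 FPKM or more, 23.3% had bounds below the control in shBCAT1 1 and 22.1% in shBCAT1 2. The share below in both was not computed at that level. Prefoldin, which hands nascent tubulin to CCT, had 4 of 6 genes tested, 0 passed, 3 were lower in both, and the median was -0.38. PFDN6 was at 13.1, 9.85 and 8.86 FPKM, PFDN5 at 18.2, 14.6 and 11.0, and PFDN2 at 7.71, 5.28 and 6.94. The bounds of PFDN5 lay below the control in shBCAT1 2 alone, beside 7.66% of all genes tested and 22.1% of those at 5 FPKM or more. Of the folding cofactors 4 of 7 were tested, 0 passed, 3 were lower in both, and the median was -0.30. TBCA, a beta tubulin cofactor, was at 21.5, 15.9 and 17.2 FPKM. TBCB, an alpha tubulin cofactor, was at 6.40, 3.20 and 5.52. Its bounds lay below the control in shBCAT1 1 alone, beside 7.61% of all genes tested and 23.3% of those at 5 FPKM or more. ARL2, a small GTPase that acts with the cofactors, was at 5.64, 4.07 and 5.21 FPKM. For genes of any kind at 5 FPKM or more the median was -0.22.

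No gene of microtubule nucleation passed. The gamma tubulin genes TUBG1 and TUBG2 were the tested members of a list of 4 with delta and epsilon tubulin, 0 passed, and both were higher in both libraries. TUBG1 was at 1.71, 1.73 and 2.58 FPKM and TUBG2 at 0.741, 0.879 and 1.42, with bounds that overlapped the control in each. Of 10 genes of the gamma tubulin ring complex and its partners, MZT2A and MZT2B were tested, 0 passed and both were lower in both libraries. MZT2A was at 28.1, 18.4 and 22.1 FPKM and MZT2B at 21.9, 17.6 and 18.6. The bounds of MZT2A lay below the control in shBCAT1 1 alone, beside 7.61% of all genes tested and 23.3% of those at 5 FPKM or more. The paralogs MZT2A and MZT2B are similar to each other, so the division of reads between them is uncertain.

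Genes that bind or modify microtubules were mostly low in level. Lattice-binding proteins had 4 of 11 genes tested, 0 passed, 0 lower and 1 higher in both. That gene, MAP4, which stabilises microtubules, was at 2.21, 2.55 and 3.37 FPKM. Its bounds lay above the control in shBCAT1 2 alone, beside 7.35% of all genes tested. Plus-end proteins had 3 of 8 tested, 0 passed, and TACC3 was lower in both at 2.12, 1.86 and 2.11. Destabilising and severing proteins had 3 of 9 tested, 0 passed and 0 on the same side in both libraries. Of 16 modifying enzymes only TTLL12 was tested, at a difference of 0.02, and 0 passed. Of the 3 genes of tubulin mRNA decay, including TTC5, 0 reached the minimum level, and their summed FPKM was 0.946, 0.899 and 1.38.

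Motor genes went both ways. Of 13 genes of dynein and dynactin 9 were tested, 0 passed, 4 were lower and 2 higher in both. The dynein heavy chain gene DYNC1H1 was at 1.91, 2.32 and 3.63 FPKM with bounds above the control in both libraries (limma adjusted p = 0.804), beside 1.26% of all genes tested. The light chain gene DYNLL1 was at 21.1, 12.9 and 12.04 FPKM, a difference of -0.71 ± 0.19 with a limma adjusted p of 0.797, and the control's bounds ran from 9.50 to 32.6. DYNLT1, another light chain gene, was at 2.57, 1.85 and 1.72. For transport kinesins 3 of 9 were tested, 0 passed, 1 was lower and 2 higher in both. KLC1 was at 1.71, 1.92 and 2.49 FPKM, KIF1C at 2.77, 2.90 and 3.46, and KLC2 at 5.06, 4.67 and 4.61. The bounds of KIF1C lay above the control in shBCAT1 2 alone, beside 7.35% of all genes tested. Of 9 spindle genes 4 were tested, 0 passed, 2 were lower and 1 higher in both. AURKA, a mitotic kinase, was at 0.8004, 1.09 and 1.27 FPKM, AURKB at 3.496, 2.65 and 3.49, and the kinesin KIFC1 at 1.81, 1.33 and 1.62.

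**Figure D5:**
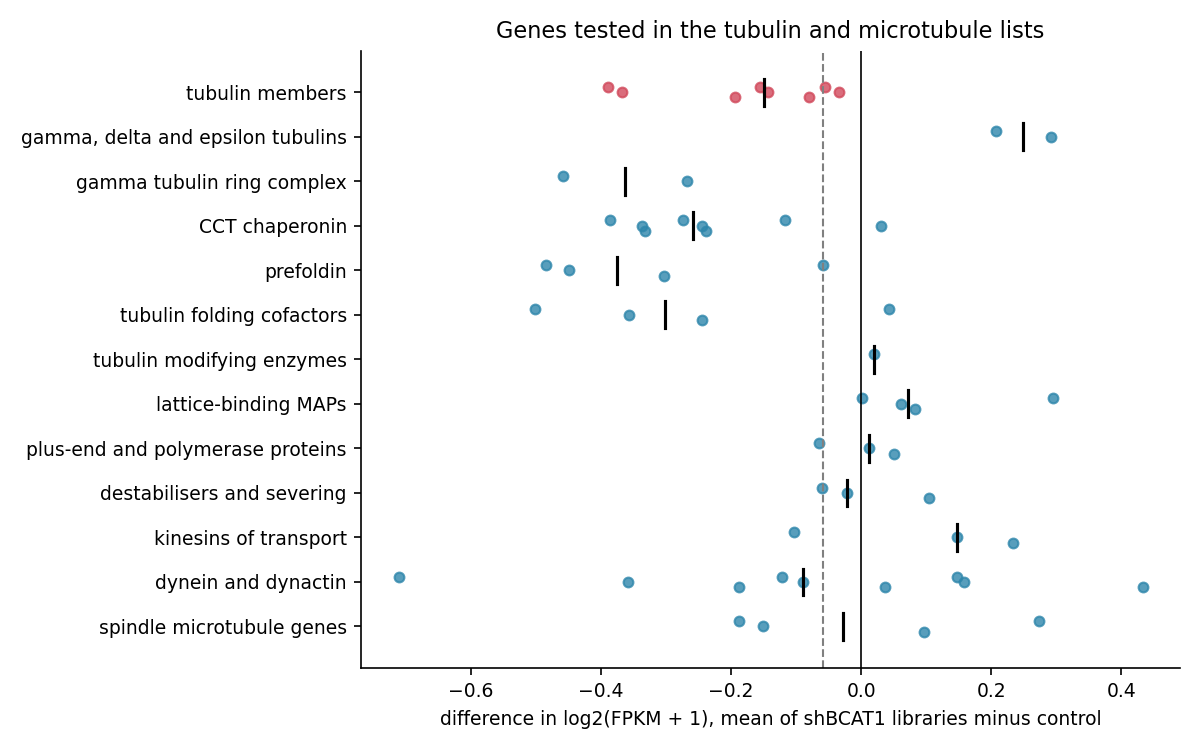
Difference in log2(FPKM + 1) between the mean of the shBCAT1 libraries and the control for each tested gene, 1 row per list, with the tubulin genes on the top row, a black bar at each list's median and a dashed line at the median of all genes tested (-0.06). The folding lists (CCT, prefoldin, cofactors) have medians of -0.26 to -0.38, and 0 genes of any list passed limma's adjusted p. For genes of any kind whose mean was 5 FPKM or more the median, not drawn, was -0.22.

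The genes whose pattern was most like that of summed tubulin were found over 527 genes whose mean was 10 FPKM or more, by the distance between their differences from the control in the libraries. Summed tubulin had -0.41 in shBCAT1 1 and -0.07 in shBCAT1 2. The nearest were MDK (-0.42 and -0.03), HINT1 (-0.41 and -0.12), OAZ1 (-0.36 and -0.08), EEF1G (-0.36 and -0.08) and IRF3 (-0.38 and -0.11), at distances of 0.0381 to 0.0551. With 3 libraries this is a description of 2 values per gene that share the control.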

How the data were processed

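RNA-seq tables of 3 libraries were used, grouped by their titles. The authors deposited FPKM per RefSeq accession and locus with confidence bounds and a status, and Trim Galore, TopHat, Cufflinks and hg38 are named per the submitters' processing notes. Versions, settings, annotation and strand were not given in the sources used here. Accessions (50337) were named from a RefSeq table on GRCh38.p14 (49281) and GENCODE 29 (625), and 431 kept no gene name and stand as their own genes. FPKM was summed per gene, and 341 genes with a status other than OK were left out. The bounds were combined as a root sum of squares, with 2 SDs from value to bound. Locus starts, which count from 0 in the tables, are printed from 1. limma 3.58.1 in R 4.3.3 was fitted with an intensity trend on log2(FPKM + 1) where the mean was 1 FPKM or more. Its tests were two-sided (prior degrees of freedom 2.99). A run on simulated data checked only that median differences were recovered, and set no condition on false calls or p-values. The log2 scale understates differences of low genes. Python 3.11.15, pandas 2.3.3, numpy 2.4.6, Biopython 1.88 and matplotlib 3.10.9 were used for the rest.

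The genes described and the gene lists were chosen with earlier results of these data known. Named are all members, up to 3 genes per list, ranked by the smaller of the 2 libraries' differences where these share a sign, BCAT1, and the 5 genes most like summed tubulin. Marker genes are given by level. Depth is known only through the bounds. Alternatives were other pseudocounts, filters and scalings, transcripts kept apart, primary chromosomes only, a removed length trend (loess, span 0.5) and leaving out each shBCAT1 library. Those of the microtubule lists were chosen after seeing the data. The coding ends of the alpha genes are not reported here.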

Additional observations from a re-analysis of the deposited data

How the results depend on the processing

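In none of the 11 alternative fits did a tubulin gene or a gene of the microtubule lists pass limma's adjusted p (0 in each), and over the tubulin genes that adjusted p ranged from 0.568 to 0.996. Of 101 values of single tubulin genes under an alternative, 90 kept their sign and 11 turned. The filters on level and status, primary chromosomes only and the fit without intensity trend left each tubulin gene's difference as it was. Values under these alternatives were bound to keep their sign and count among the 90. Over all genes tested the median difference of shBCAT1 1 was -0.12 as deposited, 0.02 with quantile normalization and -0.0059 with median-of-ratios scaling. With quantile normalization the difference was 0.056 for TUBA1B, 0.20 for TUBA1C, 0.11 for TUBA4A, 0.18 for TUBB and 0.11 for TUBB4B, and the ratio of the summed genes to the control was 1.08 in place of 0.852. With median-of-ratios scaling TUBA4A was at 0.032, and with the length trend removed TUBB3 was at 0.023. With transcripts kept apart TUBB is represented by NM_178014 alone, which was at 0.71, and the share of that transcript among the main transcripts of the beta genes in the shBCAT1 libraries was 33.7%, where the gene had 42.1%. Without the library shBCAT1 1, TUBA1A was at 0.099, TUBA4A at 0.018 and TUBB at 0.053, and without shBCAT1 2 they were at -0.878, -0.086 and -0.213, values with no test. The cause of these turns was not tested. Genes lower in both libraries numbered 3 of 6 at a minimum of 5 FPKM and 2 of 8 with quantile normalization, in place of 5 of 8. Genes higher in both numbered 4 with quantile normalization and 1 each with median-of-ratios scaling, transcripts kept apart and the length trend removed, in place of 0. Leaving out 1 shBCAT1 library gave a ratio of the summed genes of 0.751 to 0.953. No paired analysis was possible because the control is 1 library with no replicate number. Values at 0 have no floor, since read totals are unknown.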
